A study of Homo sapiens with 24 samples.

Results

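The genes described here are the writers and erasers of DNA methylation: the methyltransferases DNMT1, DNMT3A and DNMT3B, the hemimethylated-DNA reader UHRF1, and the dioxygenases TET1, TET2 and TET3. They were taken by gene symbol from the count table, and 7 of its 58735 genes matched. All 7 had counts in every library and passed the filter on low counts in every fit. The RNA is from 2 established human cell lines of diffuse large B cell lymphoma (DLBCL), called OCI-Ly18 and SU-DHL-4, sorted as viable GFP-positive cells. Before the T cells were added, each line spent 72 h in DMSO or in 500 nM tazemetostat (TAZ, also EPZ6438), which blocks EZH2, a Polycomb enzyme that methylates histone H3. CART19 cells, or UTD cells (a name the labels do not spell out), were then present for 48 h, with drug or DMSO kept on. This gave 8 groups of 3 libraries: in each line DMSO with UTD cells, TAZ with UTD cells, DMSO with CART19 cells and TAZ with CART19 cells. Every group therefore contained T cell culture, GFP labelling and sorting, and each line stands for itself alone. The labels do not state whether the 3 libraries of a group came from separate cultures, so p-values measure the spread between libraries, which may be technical.

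In mammals DNMT1 copies methylation onto the new strand after replication, and UHRF1 brings it to hemimethylated CpG sites. DNMT3A and DNMT3B place methyl groups on unmethylated CpG sites. TET enzymes oxidise 5-methylcytosine, after which the base can be diluted by replication or cut out by the glycosylase TDG and replaced. In germinal centre B cells, from which DLBCL is thought to arise, DNMT1 is known to be high, and TET2 and DNMT3A are recurrently mutated in lymphoid and myeloid malignancies. Levels below are of RNA and say nothing on methylation itself, which was not measured in these libraries.

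Total counts per library ran from 14.8e6 to 20.1e6. The 5 B cell markers MS4A1, CD79A, CD79B, PAX5 and BCL6 were detected in every group, with summed levels of 2150 to 3770 CPM, the count scaled to a common library total. The 8 T cell markers summed to 17.4 to 46.0 CPM, mostly TRAC, and 2 to 6 of the 8 had no count in a group. That sum differed between drug and DMSO without overlap in 3 of the 4 pairs: in SU-DHL-4 it was 44.4 to 45 CPM under DMSO and 27.3 to 29.1 under tazemetostat with UTD cells, and 41.5 to 46.0 and 22 to 24.9 with CART19 cells. In OCI-Ly18 it was 21.1 to 23 and 27.2 to 28.8 CPM with UTD cells, and with CART19 cells the values overlapped, at 17.4 to 21.5 and 19 to 23.9 CPM. The T cell products IFNG and GZMB together reached at most 4.33 CPM with CART19 cells and 0.286 CPM with UTD cells. The 4 NK cell markers summed to 7.51 to 21.7 CPM in OCI-Ly18 and at most 1.42 CPM in SU-DHL-4. In OCI-Ly18 that sum was mostly NCAM1, with group means of 8.96 to 19.8 CPM. KLRD1, NKG7 and GNLY had group means of at most 0.487 CPM there. The 4 monocyte markers summed to at most 1.51 CPM. The part of other cells' RNA in the results below was not tested. EZH2, the drug's target, was at 202 ± 11.3 CPM (mean ± SD, n = 3) in OCI-Ly18 and 204 ± 3.15 in SU-DHL-4 under DMSO with UTD cells. Its RNA was lower with tazemetostat in all 4 comparisons, with log2 fold changes of -0.19 to -0.28.

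The promoters of the 2 maintenance genes hold a motif that those of the other 5 genes do not. The windows searched run from 250 bases before to 50 bases after each start listed by RefSeq (build GRCh38.p14), and the 7 symbols matched 18 windows. The motif searched was the E2F-type site, spelled TTTCCCGC, TTTCGCGC, TTTGGCGC or TTTGCCGC on either strand. It was present in 3.31% of all 35116 windows of that length, in the single DNMT1 window, in 2 of the 3 UHRF1 windows, and in no window of the other 5 genes. Some windows hold more than 1 spelling. A match of letters is a description and not a binding site, and the lack of one says nothing on the factor. No GENCODE 29 coding start lies within 50 bases of the RefSeq start of DNMT1 or of any of the 3 TET1 starts. The stretches below run 5′ to 3′ from 150 bases before to 20 bases after the start, with the motif in capitals. DNMT1 and UHRF1 are shown for the motif, and DNMT3A and TET2 as the writer and the eraser that rose with tazemetostat in SU-DHL-4.
DNMT1, chr19:10194934-10195103, minus strand: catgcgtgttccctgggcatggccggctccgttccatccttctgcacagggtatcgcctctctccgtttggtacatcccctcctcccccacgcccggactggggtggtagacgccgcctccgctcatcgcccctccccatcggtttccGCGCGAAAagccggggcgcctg
UHRF1, chr19:4909351-4909520, plus strand: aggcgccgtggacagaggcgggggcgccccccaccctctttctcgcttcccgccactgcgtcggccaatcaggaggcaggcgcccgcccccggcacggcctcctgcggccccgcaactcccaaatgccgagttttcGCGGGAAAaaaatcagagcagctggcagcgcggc
DNMT3A, chr2:25252244-25252413, minus strand: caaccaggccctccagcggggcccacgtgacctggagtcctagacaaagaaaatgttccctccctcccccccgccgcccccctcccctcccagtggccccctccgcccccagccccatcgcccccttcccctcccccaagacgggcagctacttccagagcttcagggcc
TET2, chr4:105145725-105145894, plus strand: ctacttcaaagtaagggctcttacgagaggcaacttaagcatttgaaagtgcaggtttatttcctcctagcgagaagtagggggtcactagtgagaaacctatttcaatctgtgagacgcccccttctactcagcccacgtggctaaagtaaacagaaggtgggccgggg
In both maintenance genes the capitals are the site as read on the opposite strand, TTTCGCGC in DNMT1 and TTTCCCGC in UHRF1. The first capital lies 2 bases before the start in DNMT1 and 14 bases before it in UHRF1. The DNMT1, UHRF1, DNMT3A and TET2 windows of 300 bases around the stretches shown hold 30, 36, 26 and 13 CpG sites, against a median of 14 over all windows. The other TET2 window holds 35, and each of the 2 has 1 GENCODE 29 coding start within 50 bases. The other UHRF1 windows hold 46 and 40, and the DNMT3A windows range from 18 to 46.

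Levels of the 7 genes spanned a wide range, and they are compared here per kb of the gene length given with the counts (CPM per kb). That length equals the union of all annotated exons of a gene, such as 9796 bases for DNMT1 and 5145 for UHRF1. Expressed transcripts can be shorter than this union by a different factor in each gene, and their lengths were not tested. The order of genes, their ratios and their shares in a sum, here and below, hold for this length only. Under DMSO with UTD cells in OCI-Ly18, DNMT1 stood at 72.6 ± 1.2 CPM per kb and UHRF1 at 68.7 ± 0.609. TET3 followed at 4.98 ± 0.142, DNMT3B at 3.41 ± 0.339, TET1 at 1.62 ± 0.196, TET2 at 0.960 ± 0.095 and DNMT3A at 0.834 ± 0.105. Only TET2 and DNMT3A overlapped as neighbours in that order. In SU-DHL-4 the same group gave DNMT1 60.5 ± 2.14, UHRF1 43.4 ± 1.99 and TET3 4.71 ± 0.157 CPM per kb. The other 4 genes were all under 0.4 CPM per kb there, with TET1 and DNMT3A overlapping each other, and DNMT3B and TET2 likewise. On this scale the maintenance pair was the highest and TET3 the third in both lines, also in the other 3 groups of each line.

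The make-up of each enzyme class differed between the lines. DNMT1 made up 94.5% ± 0.452 of the summed per-kb level of the 3 methyltransferases in OCI-Ly18 and 99.2% ± 0.0958 in SU-DHL-4 (DMSO with UTD cells, mean ± SD, n = 3). TET3 made up 65.9% ± 1.29 of the summed TET level in OCI-Ly18 and 90.6% ± 2.17 in SU-DHL-4. TET1 gave 21.4% ± 1.95 of it in OCI-Ly18 against 5.99% ± 1.33 in SU-DHL-4, and TET2 12.7% ± 1.59 against 3.43% ± 1.28. Library ranges did not overlap between the lines for any of these shares.

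All but TET3, 6 of the 7 genes, were lower in SU-DHL-4 than in OCI-Ly18 under DMSO with UTD cells. Across all 17766 genes tested, 64.8% differed between the lines and 35.9% were lower in SU-DHL-4. Log2 fold changes are given below with their standard error, and adjusted p-values are Benjamini-Hochberg values over all genes of edgeR's quasi-likelihood test, called below 0.05. DNMT3B was at 17.3, 14.2 and 15.9 CPM in the OCI-Ly18 libraries and at 1.199, 0.759 and 0.982 CPM in those of SU-DHL-4, the widest gap of the 7 (-3.99 ± 0.232, adjusted p = 8.82e-20). Its counts in SU-DHL-4 were 11 to 19 per library in that group and 3 to 43 over all groups. TET2 was at 17.4, 14.2 and 15.9 CPM against 1.70, 4.14 and 3.06 CPM (-2.42 ± 0.202, adjusted p = 1.86e-14). TET1 was at 13.1, 15.5 and 16.6 CPM against 2.27, 2.83 and 3.58 CPM (-2.37 ± 0.206, adjusted p = 6.96e-14). DNMT3A was at 11.5, 9.13 and 9.47 CPM against 3.34, 3.52 and 3.76 CPM (-1.50 ± 0.185, adjusted p = 1.43e-09). Every OCI-Ly18 library lay above every SU-DHL-4 library for these 4 genes, and also for DNMT1 and UHRF1. The share of all genes without overlap was not counted, here or in the comparisons below. The maintenance genes differed less, by -0.66 ± 0.0479 for UHRF1 (adjusted p = 1.73e-16) and -0.26 ± 0.0391 for DNMT1 (adjusted p = 9.76e-08). TET3 gave -0.08 ± 0.074 (adjusted p = 0.351), with overlapping libraries. Upper quartile scaling, which moved the median of all genes by -0.142 here, called it (-0.22, adjusted p = 0.00797). Line, culture and cell source cannot be told apart in this contrast.

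**Figure D1:**
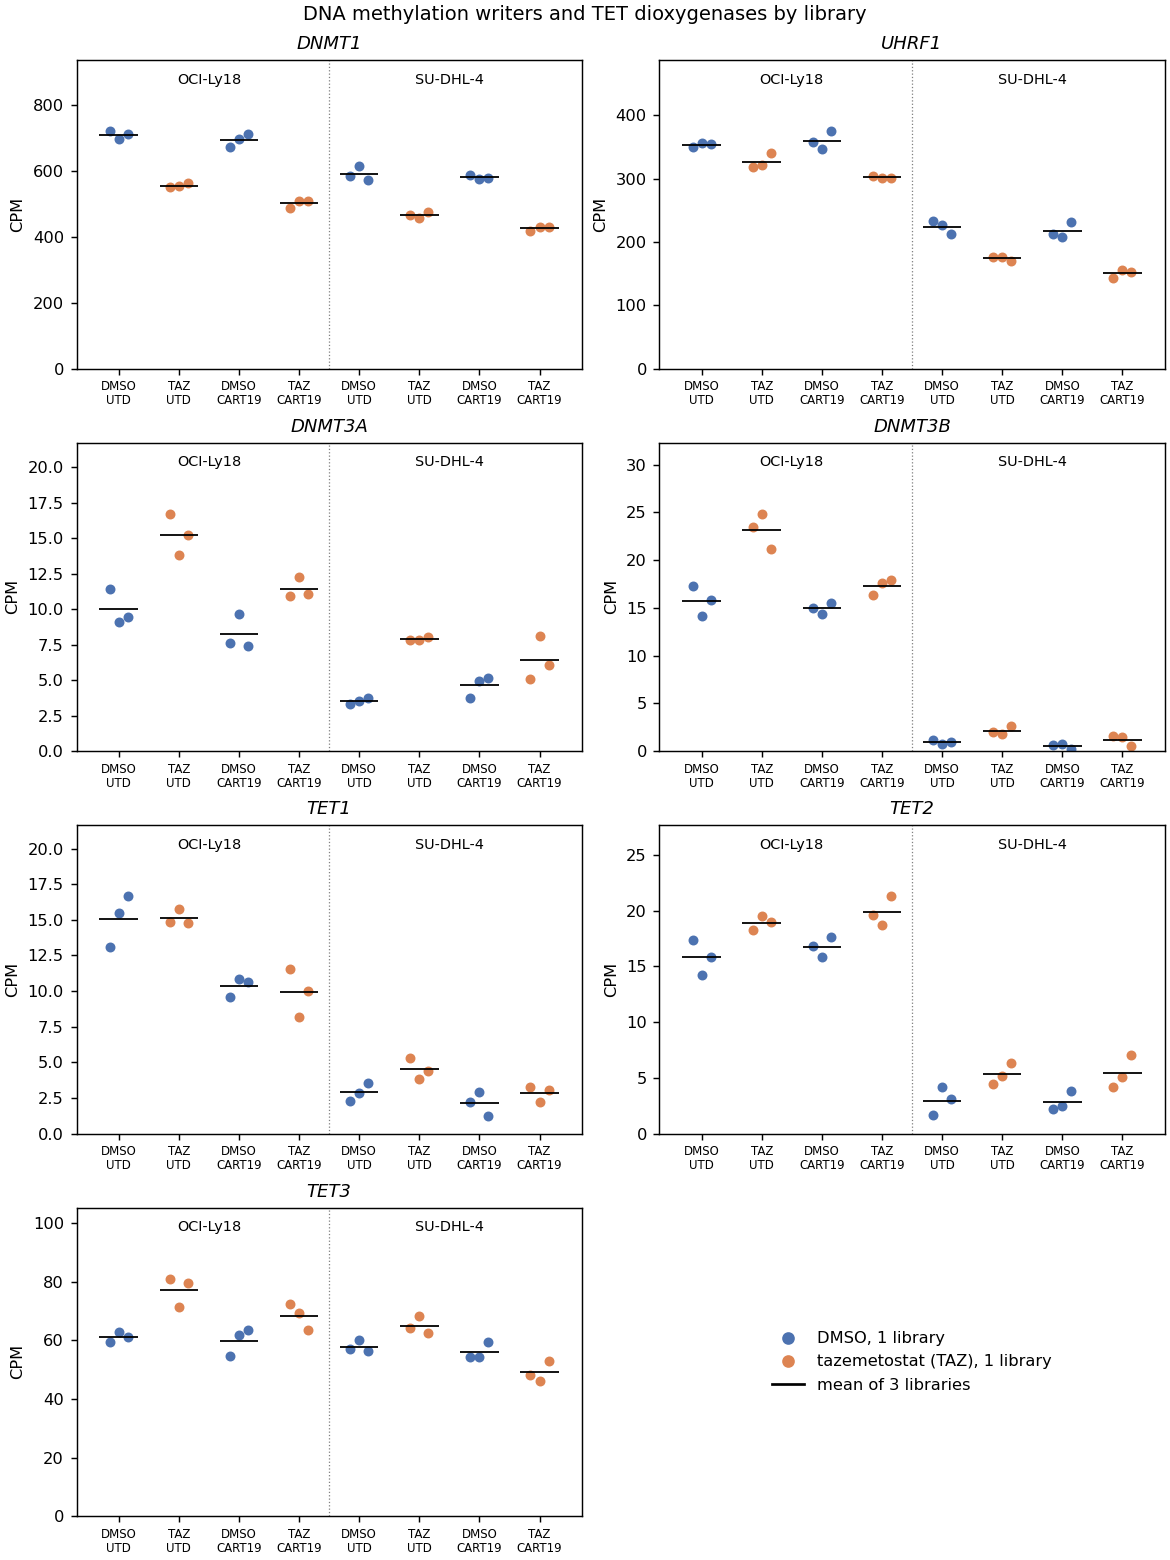
Level of each gene in CPM (y axis, from 0) in each of the 24 libraries, by group (x axis), with the mean of the 3 libraries as a line. DNMT1 and UHRF1 lie lower in the tazemetostat groups than in their DMSO groups in both lines, and DNMT3B, TET1 and TET2 lie far lower in SU-DHL-4 than in OCI-Ly18.

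The first question the design poses is what EZH2 inhibition does to these genes, with UTD cells as the T cell control. In OCI-Ly18 4 of the 7 passed the test, where 24.3% of 16467 genes did: DNMT3A, DNMT3B and TET3 rose (11.6% of all genes rose) and DNMT1 fell (12.7% fell). In SU-DHL-4 4 passed, where 35.5% of 14861 genes did: DNMT3A and TET2 rose (17.2% of all genes) and DNMT1 and UHRF1 fell (18.3%). With upper quartile scaling the split in SU-DHL-4 was 3221 genes higher and 1782 lower, against 2561 and 2721 with TMM. With CART19 cells in the culture, 3 passed in OCI-Ly18 (21.6% of all genes), DNMT3A rising (11%) and DNMT1 and UHRF1 falling (10.6%). In SU-DHL-4 4 passed with CART19 cells (34.8% of all genes), TET2 rising (16.1%) and DNMT1, UHRF1 and TET3 falling (18.7%), and there the splits were 3106 higher and 1715 lower with upper quartile scaling against 2400 and 2773. Changed genes were common in all 4 comparisons, so counts over 7 members set nothing apart by themselves.

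DNMT1, the maintenance methyltransferase, was lower with tazemetostat in all 4 comparisons. In OCI-Ly18 with UTD cells it went from 722, 699 and 714 CPM under DMSO to 553, 554 and 563 CPM. With CART19 cells it went from 675, 697 and 714 CPM to 488, 510 and 508 CPM. In SU-DHL-4 the DMSO libraries with UTD cells held 586, 615 and 575 CPM and the tazemetostat libraries 467, 459 and 475 CPM. With CART19 cells the values there were 590, 577 and 581 CPM under DMSO and 419, 431 and 432 CPM under tazemetostat. Groups did not overlap in any of the 4 pairs. In OCI-Ly18 the level fell by 21.9% with UTD cells (log2 -0.36 ± 0.0424, adjusted p = 1.33e-07). There it fell by 28.1% with CART19 cells (-0.48 ± 0.0424, adjusted p = 4.58e-10). In SU-DHL-4 it fell by 22.6% with UTD cells (-0.37 ± 0.0424, adjusted p = 1.33e-09) and fell by 28.1% with CART19 cells (-0.48 ± 0.0425, adjusted p = 1.99e-12). Between the lines the DNMT1 responses differed by 0.01 ± 0.0554 (adjusted p = 1) and, with CART19 cells, 0.02 ± 0.0555 (adjusted p = 0.919). Whether a lower level means fewer cells expressing a gene or less RNA per cell cannot be told apart in these bulk samples. DNMT1 shares 83 exon bases, 0.847% of its exon length, with S1PR2 on the same strand, which was at 146 CPM.

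UHRF1, the reader that brings DNMT1 to hemimethylated sites, fell more in SU-DHL-4 than in OCI-Ly18. In SU-DHL-4 with UTD cells the DMSO libraries were at 232, 226 and 212 CPM and the tazemetostat libraries at 176, 176 and 170 CPM. With CART19 cells they were at 212, 208 and 231 CPM against 143, 156 and 153 CPM. UHRF1 fell by 23.5% in the first pair (log2 -0.39 ± 0.0528, adjusted p = 8.69e-08) and fell by 32.1% in the second (-0.56 ± 0.0532, adjusted p = 1.3e-11). In OCI-Ly18 the values with UTD cells were 350, 356 and 355 CPM under DMSO and 318, 321 and 340 CPM under tazemetostat, a change of -0.12 ± 0.046 that missed the threshold (adjusted p = 0.059). It passed with DESeq2 (adjusted p = 0.0429) and when replicate 3 of TAZ UTD (0.0357) or replicate 1 (0.0441) or 2 (0.0311) of TAZ CART19 was left out. With CART19 cells UHRF1 went from 357, 347 and 375 CPM to 304, 301 and 300 CPM and fell by 16.4% (-0.26 ± 0.0459, adjusted p = 7.75e-05). The groups did not overlap in any of these 4 pairs.

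Tested directly, the UHRF1 response was lower in SU-DHL-4 than in OCI-Ly18 with UTD cells (difference -0.25 ± 0.0677, adjusted p = 0.0116). The size was similar with CART19 cells (-0.28 ± 0.0679, adjusted p = 0.004). Of all 17766 genes, 10.6% differed between the lines in the first of these tests (3.66% lower in SU-DHL-4) and 10.1% in the second (4.20% lower), and 1 and 2 of the 7 members did. In the second test the splits were 925 higher and 1020 lower with RLE scaling and 1263 and 549 with upper quartile scaling, against 1051 and 746. With UTD cells it did not pass when SU-DHL-4 DMSO UTD replicate 1 (-0.21, adjusted p = 0.058) or TAZ UTD replicate 3 (-0.22, adjusted p = 0.0508) was left out. Without SU-DHL-4 DMSO UTD replicate 2, TET2 passed that test as well (0.90, adjusted p = 0.0431, against 0.60 and 0.185).

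The per-kb level of UHRF1 divided by that of DNMT1 was 0.947 ± 0.023 in OCI-Ly18 under DMSO with UTD cells (n = 3) and 1.12 ± 0.029 under tazemetostat. With CART19 cells the ratio was 0.985 ± 0.032 and 1.15 ± 0.036, and in both pairs the ratios of the libraries did not overlap. Under DMSO with CART19 cells the per-kb levels of the 2 genes themselves overlapped. In SU-DHL-4 the ratio was 0.719 ± 0.031 and 0.710 ± 0.025 with UTD cells, and 0.710 ± 0.041 and 0.670 ± 0.02 with CART19 cells.

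With tazemetostat DNMT1 and UHRF1 moved with other genes of DNA replication, though UHRF1 missed the threshold in OCI-Ly18 with UTD cells. Of 22 genes of G1/S transition and replication, 20 fell with tazemetostat in OCI-Ly18 with UTD cells and 19 with CART19 cells, and in SU-DHL-4 20 and 21 fell. Over all genes tested, 12.7%, 10.6%, 18.3% and 18.7% fell in these 4 comparisons. The medians of the list were -0.26, -0.33, -0.45 and -0.48 log2, against 0.02, 0.01, 0.01 and 0.00 over all genes tested. CDT1, which licenses replication origins, fell in all 4 comparisons, by -0.40 ± 0.0635 in OCI-Ly18 with CART19 cells (adjusted p = 1.74e-05) and by -0.61 ± 0.0671 in SU-DHL-4 with UTD cells (adjusted p = 5.29e-10). CDC45, part of the replicative helicase, changed by -0.65 ± 0.0706 in SU-DHL-4 with UTD cells (adjusted p = 2.96e-10), and TYMS, thymidylate synthase, by -0.69 ± 0.0839 with CART19 cells (adjusted p = 6.35e-09). DNMT1 lay below the list's median in OCI-Ly18 in both comparisons and above it in SU-DHL-4 in both. UHRF1 lay above the median in 3 of the 4 comparisons and below it in SU-DHL-4 with CART19 cells. The list did not move with both genes in other contrasts. Between the lines, under DMSO with UTD cells, its median was 0.09, with 9 genes higher and 6 lower in SU-DHL-4. There DNMT1 (-0.26) and UHRF1 (-0.66) were lower. For CART19 over UTD cells under tazemetostat in SU-DHL-4 its median was -0.04, and 5 genes fell and 1 rose. There DNMT1 (-0.12) and UHRF1 (-0.20) fell. The part of cell cycle distribution in the fall of DNMT1 and UHRF1 was not tested.

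**Figure D2:**
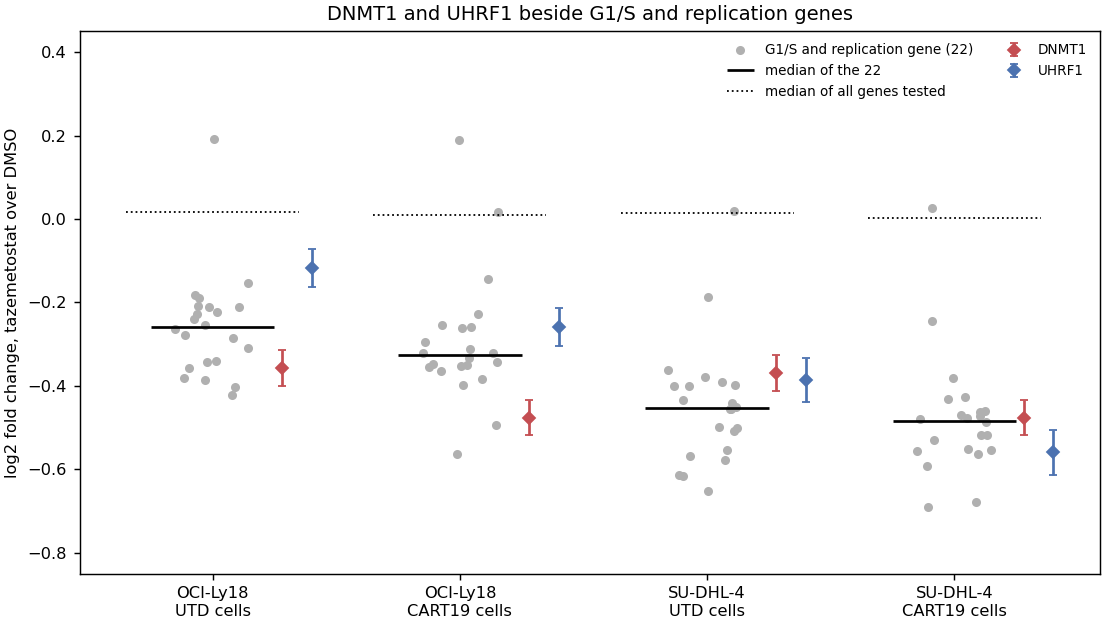
Log2 fold change of tazemetostat over DMSO (y axis) in the 4 comparisons (x axis) for 22 G1/S and replication genes (grey points, median as a solid line), DNMT1 and UHRF1 (diamonds with SE), and the median of all genes tested (dotted). The list's medians run from -0.26 to -0.48, and DNMT1 lies between -0.36 and -0.48.

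Among 7 partners of maintenance methylation, 4 fell in OCI-Ly18 with UTD cells and 3 with CART19 cells, and 5 of 7 fell in SU-DHL-4 in each comparison. The shares of all genes that fell were 12.7%, 10.6%, 18.3% and 18.7%. List medians were -0.19, -0.20, -0.44 and -0.26, against 0.02, 0.01, 0.01 and 0.00 over all genes tested. PCNA, the replication clamp that DNMT1 binds, fell in all 4, by -0.37 ± 0.0485 (adjusted p = 7.77e-07) in OCI-Ly18 and -0.52 ± 0.0463 (adjusted p = 1.84e-12) in SU-DHL-4 with UTD cells. LIG1, the replicative ligase that UHRF1 recognises, fell by -0.32 ± 0.0566 in OCI-Ly18 with CART19 cells (adjusted p = 7.03e-05) and -0.48 ± 0.0613 in SU-DHL-4 with UTD cells (adjusted p = 1.78e-08). CDCA7, a partner of the remodeller HELLS, went from 220 to 155 CPM in SU-DHL-4 with UTD cells (-0.53 ± 0.0534, adjusted p = 3.6e-11). The member that rose in SU-DHL-4, named after its values were seen, was USP7, a deubiquitinase known to stabilise both DNMT1 and UHRF1. It went from 207 to 249 CPM with UTD cells (0.24 ± 0.0488, adjusted p = 7.7e-05).

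Of the de novo enzymes, DNMT3A passed in 3 of the 4 tazemetostat comparisons and DNMT3B in 1, each time as a rise. DNMT3A in OCI-Ly18 with UTD cells was at 11.5, 9.13 and 9.47 CPM under DMSO and 16.7, 13.8 and 15.2 CPM under tazemetostat. It rose by 51.8% (log2 0.60 ± 0.147, adjusted p = 0.00243). With CART19 cells it went from 7.62, 9.66 and 7.43 CPM to 10.96, 12.3 and 11.04 CPM (0.46 ± 0.150, adjusted p = 0.0247). Groups did not overlap in either pair. The second did not pass when DMSO CART19 replicate 1 (0.41, adjusted p = 0.11), DMSO CART19 replicate 3 (0.40, adjusted p = 0.119) was left out, nor when replicate 2 of TAZ CART19 was (0.41, adjusted p = 0.0754).

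In SU-DHL-4 DNMT3A went from 3.34, 3.52 and 3.76 CPM to 7.87, 7.83 and 8.02 CPM with UTD cells, a 2.19-fold rise (log2 1.13 ± 0.213, adjusted p = 3.3e-05). With CART19 cells its libraries overlapped, at 3.75, 4.94 and 5.18 CPM under DMSO and 5.10, 8.13 and 6.08 CPM under tazemetostat (0.44 ± 0.210, adjusted p = 0.103). Without TAZ CART19 replicate 1 the change there was 0.60 and passed (adjusted p = 0.0358). The difference between the responses with CART19 and with UTD cells in SU-DHL-4 was -0.69 ± 0.30 (adjusted p = 0.334). The difference between the lines was 0.55 ± 0.248 with UTD cells (adjusted p = 0.17) and -0.01 ± 0.260 with CART19 cells (adjusted p = 1).

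DNMT3B, the second de novo enzyme, rose in OCI-Ly18 with UTD cells from 17.3, 14.2 and 15.9 CPM to 23.5, 24.9 and 21.2 CPM (log2 0.55 ± 0.115, adjusted p = 5.02e-04). The CART19 groups held 15.02, 14.4 and 15.5 CPM under DMSO and 16.3, 17.6 and 17.97 CPM under tazemetostat (0.20 ± 0.116, adjusted p = 0.235). Neither pair overlapped. In SU-DHL-4 with UTD cells it was at 1.199, 0.759 and 0.982 CPM under DMSO and 2.0, 1.83 and 2.63 CPM under tazemetostat (1.10 ± 0.470, adjusted p = 0.0633). The CART19 groups overlapped, at 0.670, 0.738 and 0.190 CPM and 1.61, 1.44 and 0.547 CPM (log2 1.139 ± 0.521, adjusted p = 0.0857). At 3 to 43 counts per library these 2 values are imprecise. Both passed in the fit of all 24 libraries (adjusted p = 0.00275 and 0.0116) and with the stricter filter on low counts. The first also passed with upper quartile scaling (1.18, adjusted p = 0.048), and the second without TAZ CART19 replicate 3 (1.47, adjusted p = 0.0305). Leaving that library out also made the difference between lines pass (1.22, adjusted p = 0.0307, against 0.98 ± 0.401 and 0.123).

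Summed per kb, the de novo pair went from 4.24 ± 0.436 to 6.28 ± 0.373 CPM per kb in OCI-Ly18 with UTD cells (n = 3) and from 3.92 ± 0.0406 to 4.69 ± 0.215 with CART19 cells. In SU-DHL-4 it went from 0.506 ± 0.0433 to 1.12 ± 0.1, and from 0.4998 ± 0.0613 to 0.795 ± 0.183. Library ranges did not overlap in any of these pairs. The sums were not tested. With CART19 cells in SU-DHL-4 neither DNMT3A nor DNMT3B passed by itself, and the libraries of each overlapped. The share of DNMT1 among the 3 methyltransferases went from 94.5% to 90.0% in OCI-Ly18 and from 99.2% to 97.7% in SU-DHL-4 with UTD cells, again with no overlap.

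TET2, an eraser frequently mutated in haematological malignancy, was raised by tazemetostat in SU-DHL-4. With UTD cells it was at 1.70, 4.14 and 3.06 CPM under DMSO and 4.45, 5.20 and 6.37 CPM under tazemetostat (log2 0.83 ± 0.273, adjusted p = 0.0148). The CART19 groups held 2.21, 2.50 and 3.79 CPM and 4.16, 5.12 and 7.04 CPM (0.90 ± 0.274, adjusted p = 0.00805). Groups did not overlap in either pair, though counts were only 27 to 104 per library. The first did not pass when DMSO UTD replicate 1, the lowest library, was left out (0.55, adjusted p = 0.147), nor when TAZ UTD replicate 3 was (0.68, adjusted p = 0.0923). The second ended when replicate 1 of DMSO CART19 (0.77, adjusted p = 0.0543) or replicate 3 of TAZ CART19 (0.67, adjusted p = 0.0923) was left out.

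In OCI-Ly18 TET2 was at 17.4, 14.2 and 15.9 CPM and 18.2, 19.6 and 18.99 CPM with UTD cells (0.26 ± 0.115, adjusted p = 0.108), and at 16.8, 15.9 and 17.6 CPM and 19.6, 18.7 and 21.3 CPM with CART19 cells (0.24 ± 0.113, adjusted p = 0.139). The libraries did not overlap in these pairs either, though neither change passed the test. The lines' responses differed by 0.60 ± 0.277 (adjusted p = 0.185) and 0.68 ± 0.277 (adjusted p = 0.12), so a larger rise in SU-DHL-4 was not shown. The second of these passed without SU-DHL-4 DMSO CART19 replicate 3 (0.94, adjusted p = 0.0397).

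TET3, the most abundant TET transcript per kb in both lines, rose in one comparison and fell in another. In OCI-Ly18 with UTD cells it rose from 59.3, 62.8 and 61.2 CPM to 80.9, 71.3 and 79.5 CPM (log2 0.34 ± 0.0741, adjusted p = 9.15e-04). Values overlapped with CART19 cells, at 54.5, 61.8 and 63.4 CPM and 72.5, 69.2 and 63.4 CPM (0.18 ± 0.0741, adjusted p = 0.0737), and passed (0.24, adjusted p = 0.0378) when replicate 3 of TAZ CART19 was left out. In SU-DHL-4 with UTD cells TET3 was at 57.1, 59.97 and 56.3 CPM under DMSO and 64.1, 68.2 and 62.5 CPM under tazemetostat (0.14 ± 0.0745, adjusted p = 0.133), which passed with upper quartile scaling (0.22, adjusted p = 0.0165). With CART19 cells it fell from 54.2, 54.2 and 59.5 CPM to 48.3, 46.2 and 52.9 CPM (-0.22 ± 0.0758, adjusted p = 0.0217). The TET3 response with CART19 cells was lower in SU-DHL-4 than in OCI-Ly18 (-0.38 ± 0.105, adjusted p = 0.0121). The fall within SU-DHL-4 is less firm. It was lost with upper quartile scaling (-0.13, adjusted p = 0.18), in the fit of all 24 libraries (-0.19, adjusted p = 0.0565) and in 5 of 12 fits without 1 library, the lowest size being without DMSO CART19 replicate 3 (-0.15, adjusted p = 0.218).

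TET1, the third eraser, did not pass in any of the 4 tazemetostat comparisons. It was at 13.1, 15.5 and 16.6 CPM and 14.9, 15.8 and 14.8 CPM in OCI-Ly18 with UTD cells (0.00 ± 0.138, adjusted p = 0.991). In SU-DHL-4 with UTD cells the libraries did not overlap, at 2.27, 2.83 and 3.58 CPM and 5.29, 3.83 and 4.41 CPM (0.61 ± 0.287, adjusted p = 0.0968), and the fit of all 24 libraries called it (0.63, adjusted p = 0.0321). The summed TET level per kb went from 7.56 ± 0.237 to 9.08 ± 0.327 CPM per kb with tazemetostat and UTD cells in OCI-Ly18 (n = 3), and from 5.20 ± 0.226 to 6.10 ± 0.168 in SU-DHL-4, without overlap. With CART19 cells it went from 7.02 ± 0.466 to 7.85 ± 0.433 in OCI-Ly18, without overlap, and from 4.96 ± 0.222 to 4.64 ± 0.387 in SU-DHL-4, with overlap. These sums were not tested.

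**Figure D3:**
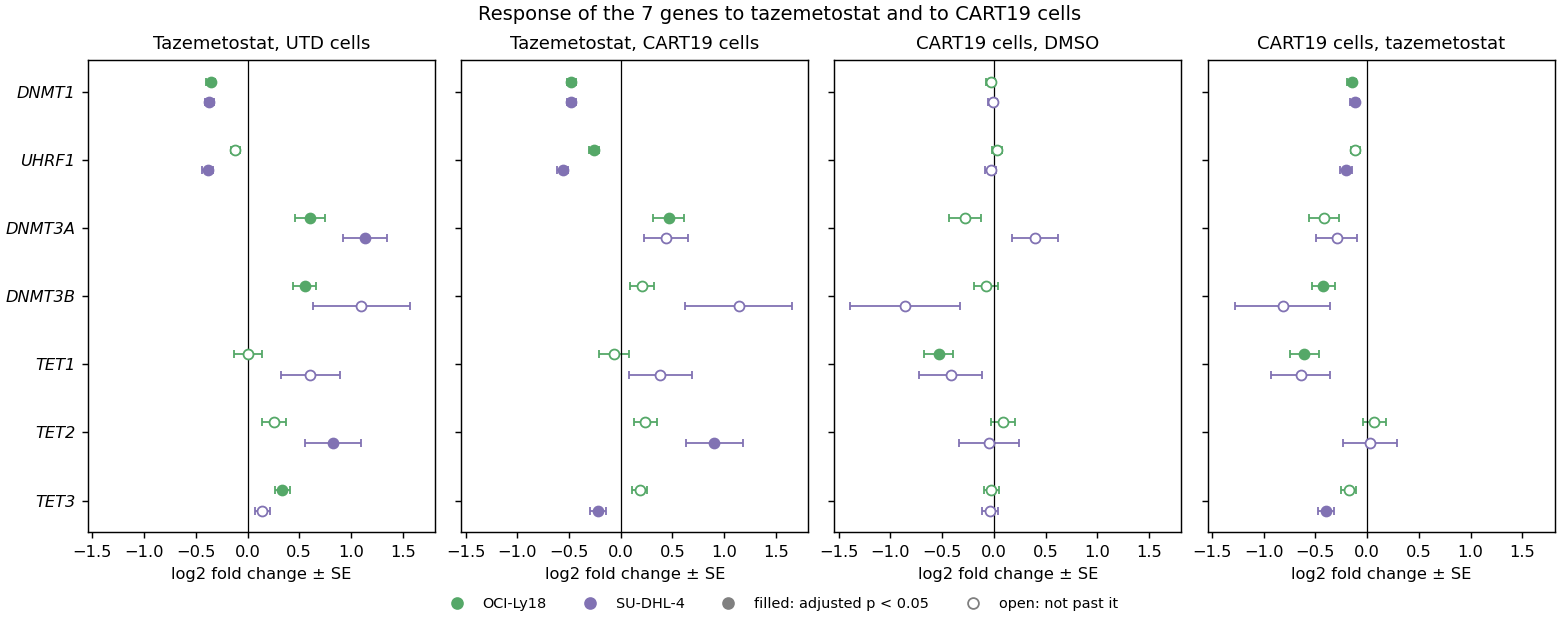
Log2 fold change ± SE (x axis) of the 7 genes (y axis) for tazemetostat over DMSO with UTD or CART19 cells and for CART19 over UTD cells under DMSO or tazemetostat, by line (colour). Filled points passed an adjusted p of 0.05. DNMT1 lies below 0 in both tazemetostat panels in both lines, and DNMT3A and DNMT3B lie above it.

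The second question is what contact with CART19 cells does. Under DMSO, 1 of the 7 genes passed in OCI-Ly18, where 11% of all genes did and 4.75% fell. That gene was TET1, which went from 13.1, 15.5 and 16.6 CPM with UTD cells to 9.60, 10.9 and 10.7 CPM with CART19 cells, a fall of 31.0% (log2 -0.53 ± 0.142, adjusted p = 0.0106). The groups did not overlap. It did not pass when DMSO UTD replicate 3 (-0.45, adjusted p = 0.086) or DMSO CART19 replicate 1 (-0.49, adjusted p = 0.0611) was left out. Under tazemetostat TET1 again fell in OCI-Ly18, from 14.9, 15.8 and 14.8 CPM to 11.5, 8.21 and 10.03 CPM (-0.61 ± 0.141, adjusted p = 0.00267). This call held in each of the 12 fits that leave out 1 library.

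In SU-DHL-4 under DMSO edgeR called 0 of the 7 genes for CART19 cells, DESeq2 and limma voom also called 0, and 0 had an unadjusted p below 0.05. Of all genes 7.79% passed there. TET1 was at 2.27, 2.83 and 3.58 CPM with UTD cells and 2.21, 2.95 and 1.26 CPM with CART19 cells (-0.42 ± 0.305, adjusted p = 0.524). The TET1 responses of the lines under DMSO differed by 0.11 ± 0.311 (adjusted p = 0.991). For this difference between lines edgeR, DESeq2 and limma voom called 0 of the 7, against 2.83% of all genes, and DNMT3A alone had an unadjusted p below 0.05 (0.0135). No share of all genes was counted at the unadjusted level.

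The same comparison was made with tazemetostat present. In OCI-Ly18 3 of the 7 fell with CART19 cells, DNMT1, DNMT3B and TET1, where 13.4% of all genes passed and 5.05% fell. Upper quartile scaling gave 1053 genes higher and 1175 lower there, against 1372 and 832, and called 6 of the 7 genes as lower. DNMT3B went from 23.5, 24.9 and 21.2 CPM to 16.3, 17.6 and 17.97 CPM (-0.42 ± 0.113, adjusted p = 0.00952). DNMT1 went from 553, 554 and 563 CPM to 488, 510 and 508 CPM (-0.15 ± 0.0424, adjusted p = 0.0152). DNMT3B did not pass without TAZ CART19 replicate 1 (adjusted p = 0.0511), without TAZ UTD replicate 2 (0.0601) or in the fit of all 24 libraries (0.0751). DNMT1 did not pass without replicate 1 of TAZ CART19 (adjusted p = 0.0805), without TAZ UTD replicate 3 (0.0529) or with no filter (0.0573). DNMT3A gave -0.42 ± 0.144 just outside the threshold (adjusted p = 0.0503), and RLE or upper quartile scaling, the stricter filter, DESeq2 and limma voom called it (adjusted p = 0.0294 to 0.0448).

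In SU-DHL-4 3 fell under tazemetostat, TET3, UHRF1 and DNMT1, where 14.5% of all genes passed and 7.86% fell. TET3 went from 64.1, 68.2 and 62.5 CPM to 48.3, 46.2 and 52.9 CPM, without overlap (-0.40 ± 0.0752, adjusted p = 1.05e-04). UHRF1 went from 176, 176 and 170 CPM to 143, 156 and 153 CPM (-0.20 ± 0.0534, adjusted p = 0.00544). DNMT1 went from 467, 459 and 475 CPM to 419, 431 and 432 CPM, a change of -0.12 ± 0.0425 at the edge of the threshold (adjusted p = 0.0487), and the call was lost in 11 of the 12 fits without 1 library. The UHRF1 call ended when replicate 1 of TAZ UTD (adjusted p = 0.0565) or of TAZ CART19 (0.0607) was left out.

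That drug and CART19 cells acted on each other was not shown for these genes. For the interaction edgeR called 0 of the 7 in each line, as did DESeq2 and limma voom, against 0.419% of all genes in OCI-Ly18 and 0.895% in SU-DHL-4. At an unadjusted p below 0.05 there were 2 in OCI-Ly18 (DNMT3B and UHRF1) and 3 in SU-DHL-4 (DNMT3A, UHRF1 and TET3). The share of all genes at that unadjusted level was not counted, and the shares above are at the adjusted one. Upper quartile scaling gave 43 genes higher and 22 lower in OCI-Ly18, against 55 and 14. The largest in SE units was TET3 in SU-DHL-4, at -0.36 ± 0.106 (adjusted p = 0.0972). All 7 fitted interactions were below 0 in OCI-Ly18, and 5 of 7 were in SU-DHL-4. The others there were DNMT3B at 0.04 ± 0.628 and TET2 at 0.08 ± 0.388. The median over all genes tested was 0.0015 in OCI-Ly18 and -0.0087 in SU-DHL-4, and the share of all genes below 0 was not counted. In OCI-Ly18 TET1 (-0.07 ± 0.20) and TET2 (-0.02 ± 0.161) were smaller than their SE, and both changed sign when certain libraries were left out.

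**Figure D4:**
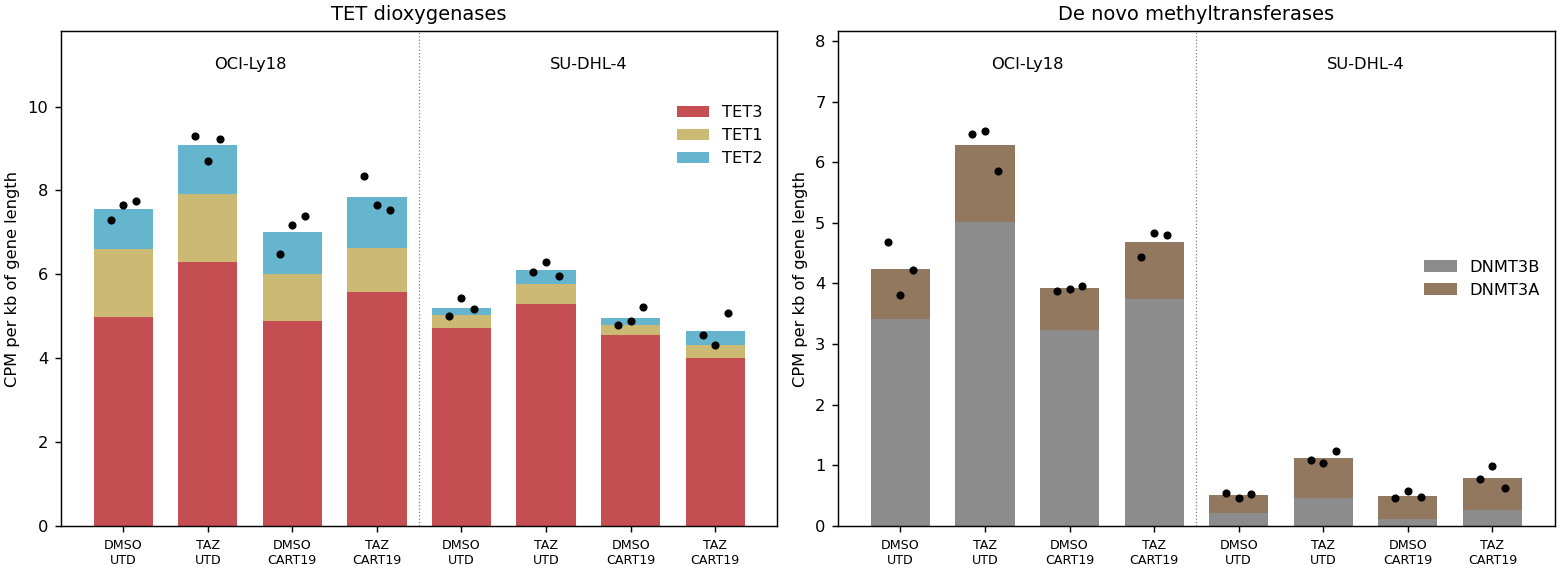
Summed level per length (CPM per kb, y axis from 0) of the 3 TET genes (left) and the 2 de novo methyltransferases (right) in the 8 groups (x axis), as stacked group means with each library's sum as a point. TET3 makes up most of the TET sum, 65.9% and 90.6% under DMSO with UTD cells, and the de novo sum is 4.24 in OCI-Ly18 and 0.506 in SU-DHL-4 there.

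Among 8 tested genes of base excision and demethylation, 1 rose and 1 fell with tazemetostat and UTD cells in OCI-Ly18, and 2 rose and 1 fell in SU-DHL-4, near the 24.3% and 35.5% of all genes that passed. TDG, which excises the bases that TET enzymes make, fell in all 4 comparisons, by -0.49 ± 0.0565 in OCI-Ly18 with UTD cells (adjusted p = 6.67e-08) and -0.18 ± 0.0578 in SU-DHL-4 (adjusted p = 0.0107). NEIL1, another glycosylase, rose in SU-DHL-4 from 42.6 to 60.9 CPM with UTD cells (0.49 ± 0.0826, adjusted p = 5.44e-06). In OCI-Ly18 it was at 22.01 and 21.79 CPM in those groups (-0.02 ± 0.129, adjusted p = 0.953). Both responses with UTD cells were higher in SU-DHL-4 when tested directly, by 0.33 ± 0.0799 for TDG (adjusted p = 0.00303) and 0.53 ± 0.151 for NEIL1 (adjusted p = 0.0164). With CART19 cells neither difference passed, at -0.09 ± 0.0794 for TDG (adjusted p = 0.583) and 0.44 ± 0.158 for NEIL1 (adjusted p = 0.0716).

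Among 7 TET partners and enzymes that make or remove TET cofactors, 2 rose and 1 fell with tazemetostat and UTD cells in OCI-Ly18. With CART19 cells 1 rose and 1 fell there. In SU-DHL-4, where 6 were tested, 1 rose and 3 fell with UTD cells, and 1 rose and 2 fell with CART19 cells. The shares of all genes that passed were 24.3%, 21.6%, 35.5% and 34.8%. IDH2 changed in every one of the 8 comparisons between 2 groups within a line. IDH2 is the mitochondrial isocitrate dehydrogenase, whose product 2-oxoglutarate TET enzymes use. CART19 cells raised it under DMSO from 66.0 ± 3.26 to 97.5 ± 6.82 CPM in OCI-Ly18 (log2 0.56 ± 0.0689, adjusted p = 2.1e-07) and from 184 ± 7.51 to 303 ± 6.44 CPM in SU-DHL-4 (0.73 ± 0.0485, adjusted p = 1.1e-16). Tazemetostat raised it in OCI-Ly18 (0.54 ± 0.0689, adjusted p = 4.47e-07) and lowered it in SU-DHL-4 (-0.37 ± 0.0494, adjusted p = 4.54e-08) with UTD cells. OGT, the O-GlcNAc transferase that binds TET2 and TET3, rose in SU-DHL-4 with tazemetostat from 220 to 298 CPM (0.41 ± 0.0521, adjusted p = 1.8e-08).

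Of 6 tested partners of the de novo enzymes, 1 rose and 1 fell in OCI-Ly18 with tazemetostat and UTD cells, 2 fell with CART19 cells, and in SU-DHL-4 2 and 5 fell. Of all genes 24.3%, 21.6%, 35.5% and 34.8% passed in these comparisons in either direction, and 12.7%, 10.6%, 18.3% and 18.7% fell. EHMT1, an H3K9 methyltransferase, fell in all 4, by -0.25 ± 0.0479 in OCI-Ly18 (adjusted p = 1.49e-04) and -0.24 ± 0.0599 in SU-DHL-4 with UTD cells (adjusted p = 0.00114). Of 7 readers of methylated CpG, 2 rose and 1 fell in each line with tazemetostat and UTD cells, where 24.3% of all genes passed in OCI-Ly18 and 35.5% in SU-DHL-4. The risers in both lines were ZBTB38 and ZBTB4, and MBD2 fell in both. ZBTB38 went from 6.14 to 11.5 CPM in OCI-Ly18 (0.91 ± 0.173, adjusted p = 1.77e-04) and from 34.4 to 50.9 CPM in SU-DHL-4 (0.54 ± 0.0901, adjusted p = 4.55e-06). Of 6 genes that supply S-adenosylmethionine, the methyl donor, 2 fell in OCI-Ly18 with tazemetostat and UTD cells, and 1 rose and 1 fell in SU-DHL-4, beside the same shares of all genes. MAT2B, the regulatory subunit of the synthetase, fell in both, by -0.35 ± 0.0588 (adjusted p = 3.87e-05) and -0.34 ± 0.0732 (adjusted p = 2e-04). With CART19 cells under tazemetostat it rose in OCI-Ly18 by 0.74 ± 0.0582 (adjusted p = 9.83e-12) and in SU-DHL-4 by 0.45 ± 0.0728 (adjusted p = 5.97e-06).

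Germline genes that promoter methylation is known to keep silent were looked up as a readout. Of 14, 1 passed the filter on low counts in OCI-Ly18 and 3 in SU-DHL-4, and the others were too low to test. Named after their values were seen, MAEL was the one that tazemetostat raised in SU-DHL-4 beside UTD cells, from 0.146 to 1.08 CPM (log2 2.79 ± 0.811, adjusted p = 0.00547), and PRAME the one that it raised beside CART19 cells, from 1.12 to 2.30 CPM (1.01 ± 0.399, adjusted p = 0.0442). That is 1 of 3 in each, where 17.2% and 16.1% of all genes rose. MAEL did not pass with CART19 cells (1.48 ± 0.823, adjusted p = 0.166), nor PRAME with UTD cells (0.64 ± 0.381, adjusted p = 0.199). SYCP3, the third, passed in neither (0.49 ± 0.623 and 0.25 ± 0.655, adjusted p = 0.584 and 0.804). It was the one tested in OCI-Ly18 and did not pass there. All 3 genes are near the floor of what could be tested. MAEL was at 0.195 CPM under DMSO and 0.556 under tazemetostat with CART19 cells, against a cutoff of 0.606 CPM in the filter, so it entered the test through the group where it is high and its call is not independent of that.

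The genes whose pattern over the 8 groups was most like each member were found by the cosine of log2 CPM group means after each line's mean was subtracted, among 9836 protein coding genes. For DNMT1 they were RAD54L (0.993), SPAG5 (0.990) and PDF (0.989), and for UHRF1 DDX54 (0.991), CDK4 (0.991) and RITA1 (0.990). For TET2 they were SESN1 (0.999), CCDC102A (0.995) and YPEL2 (0.995). DNMT3A was most like PIK3IP1 (0.991), DNMT3B like B3GALT6 (0.991), TET1 like FZD8 (0.988) and TET3 like DAP (0.979). Among the members themselves the cosine of DNMT1 and UHRF1 was 0.910, and TET2 ran opposite to both, at -0.856 with DNMT1 and -0.941 with UHRF1. These values rest on 8 group means that share libraries and depth, and high values are common when a search covers so many genes.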

How the data were processed

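Whole-number read counts for each gene in each of 24 libraries were deposited by the authors without scaling, with gene lengths and replicate numbers. Per the submitters' processing notes the build was hg38 and DESeq2 was used, and the aligner, counting tool and strand setting are not stated, so overlapping and antisense genes may share reads. Gene names turned into dates (27) were restored. Members and lists were chosen with earlier results of these data known, and some list genes are not reported here.

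Fits used edgeR 4.0.16 in R 4.3.3: TMM, filterByExpr by group (minimum count 10) and robust quasi-likelihood F-tests, with Benjamini-Hochberg adjustment over all genes and calls below 0.05. Each line was fitted on its 12 libraries, and differences between lines on all 24. The standard error is the log2 fold change over the square root of F. CPM used TMM-scaled library sizes. The method was tested on simulated data, and no 2 replicates were copies (chi-square over degrees of freedom 2.77 to 14.8). Named genes were the members, EZH2, up to 3 called genes per list by size of change at 5 CPM or more, of which some are shown, the 3 most alike genes per member, and those marked. Alternatives tried were scaling by RLE or by upper quartile, omitting the filter, a stricter filter (at least 1 CPM in a whole group, mean count 20), DESeq2 1.42.0, limma 3.58.1 voom, a replicate block, one fit of 24 libraries, each library left out, and CPM over raw totals.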

Additional observations from a re-analysis of the deposited data

Results flagged for a closer look

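Each value here is a difference between 2 responses that passed its own edgeR test, in log2 units with its SE. The UHRF1 response to tazemetostat was lower in SU-DHL-4 than in OCI-Ly18 with UTD cells (-0.25 ± 0.0677, adjusted p = 0.0116) and with CART19 cells (-0.28 ± 0.0679, adjusted p = 0.004). The TET3 response with CART19 cells was lower in SU-DHL-4 (-0.38 ± 0.105, adjusted p = 0.0121).

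The IDH2 response to tazemetostat was lower in SU-DHL-4 by -0.89 ± 0.0817 with UTD cells and -0.59 ± 0.0792 with CART19 cells (adjusted p = 2.97e-11 and 4.29e-07).

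Among the other genes named, the tazemetostat response with UTD cells was higher in SU-DHL-4 for NEIL1 (0.53 ± 0.151), USP7 (0.37 ± 0.0632), OGT (0.35 ± 0.0767) and TDG (0.33 ± 0.0799). It was lower there for CDT1 (-0.38 ± 0.0949), TYMS (-0.36 ± 0.101), CDC45 (-0.35 ± 0.0957), CDCA7 (-0.32 ± 0.0759), LIG1 (-0.32 ± 0.0812) and TRIM28 (-0.20 ± 0.0576). With CART19 cells the response was higher in SU-DHL-4 for USP7 (0.29 ± 0.063) and OGT (0.24 ± 0.0768), and lower for TYMS (-0.30 ± 0.101) and CDCA7 (-0.27 ± 0.0763). The EHMT1 response to CART19 cells under DMSO was higher in SU-DHL-4 by 0.24 ± 0.0677 (adjusted p = 0.0441). The MAT2B response to tazemetostat in OCI-Ly18 was higher with CART19 cells than with UTD cells by 0.41 ± 0.0819 (adjusted p = 0.0138).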

How the results depend on the processing

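Of the 14 counts of members called, 13 stayed within 1.5 times under every alternative in scaling, filter, tool and fit. The other, CART19 over UTD cells under tazemetostat in OCI-Ly18, was 6 with upper quartile scaling against 3. Upper quartile scaling moved the median of all genes by up to 0.142 log2 (between lines), other settings by at most 0.0418. Leaving out 1 library moved 4 counts beyond that: the same comparison (1 to 4 against 3), CART19 under DMSO in OCI-Ly18 (0 to 1 against 1), CART19 under tazemetostat in SU-DHL-4 (1 to 3 against 3), and the line difference in the tazemetostat response with UTD cells (0 to 2 against 1). The cause was not tested, beyond that fewer samples enter such fits. Of the changes of the members that passed, 0 changed sign.

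Changes that did not pass and lie near 0 changed sign under some settings. With DESeq2, RLE scaling, no filter and the stricter filter the DNMT1 line difference was -0.012, -0.012, -0.032 and -0.031 with UTD cells and -0.017, -0.017, -0.0041 and -0.0099 with CART19 cells. TET1 with tazemetostat and UTD cells in OCI-Ly18 was -0.0082 with no filter and -1.5e-05 with DESeq2. In SU-DHL-4 TET2 with limma voom was 0.0078 (CART19, DMSO), -0.026 (CART19, tazemetostat) and -0.034 (interaction), and the DNMT3B interaction was -0.010 with the replicate block. The DNMT3A line difference with CART19 cells was 0.040 with upper quartile scaling, and the TET3 line difference for CART19 was 0.014 with the stricter filter.

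Without 1 library, such ranges in OCI-Ly18 were -0.10 to 0.080 and -0.20 to 0.048 for TET1 with tazemetostat (UTD, CART19), -0.0055 to 0.056 for UHRF1 and -0.070 to 0.027 for TET3 with CART19 under DMSO, and -0.19 to 0.049 (TET1) and -0.075 to 0.056 (TET2) for the interaction. In SU-DHL-4 they were -0.047 to 0.020 (DNMT1) and -0.34 to 0.26 (TET2) with CART19 under DMSO, -0.20 to 0.21 (TET2) under tazemetostat, and -0.33 to 0.39 (DNMT3B), -0.46 to 0.11 (TET1) and -0.22 to 0.38 (TET2) for the interaction. Line differences ran from -0.042 to 0.045 and -0.066 to 0.029 (DNMT1, tazemetostat, UTD and CART19), -0.21 to 0.083 (DNMT3A, CART19), and for the CART19 response -0.0048 to 0.049 (DNMT1), -0.20 to 0.38 (TET1), -0.41 to 0.16 (TET2) and -0.061 to 0.045 (TET3).

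With the authors' replicate numbers as a replicate block, DNMT1 with CART19 under tazemetostat in SU-DHL-4 no longer passed (-0.12, adjusted p = 0.0668), and the count there was 2 against 3. Of 36 pairs of same-numbered libraries, 4 had deviations with a correlation over 0.1 (range -0.295 to 0.160). Differently numbered pairs were not compared, so whether the numbers mark paired cultures is not settled. With CPM over raw totals 46 of 56 group levels moved by less than 1 SD. Over all genes, the interaction in OCI-Ly18 gave 55 higher and 14 lower, against 183 and 123 with no filter, 166 and 72 with DESeq2, 38 and 5 with limma voom, 22 and 3 with the replicate block and 96 and 30 in the fit of 24 libraries. In SU-DHL-4 it gave 40 and 93, against 102 and 155 with DESeq2 and 12 and 51 in the fit of 24 libraries. Depth limits DNMT3B, TET1 and TET2 in SU-DHL-4, at 3 to 104 counts per library.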
